A study of Mus musculus with 8 samples.

Results

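The protein-coding genes that lie around Gfi1 on mouse chromosome 5 were examined in RNA-seq counts of whole bone marrow (BM) from 8 mice, 2 in each of 4 groups. The members are the genes that GENCODE M21 (GRCm38) lists as protein coding, that overlap 97.7 to 117.7 Mb of chromosome 5 and that had at least 20 counts summed over the 8 libraries. Gfi1 itself and genes of ribosomal and respiratory-chain families, known by the start of their symbols, were left out. Of 217 protein-coding genes counted in this interval, 153 met the rule, 58 had fewer than 20 counts, 5 were left out by their symbol and 1 was Gfi1. The long non-coding gene A430072P03Rik, which starts beside Gfi1, was added by name and makes 154 of the 41214 genes in the count files. Of the 153 members, 45 start at lower coordinates than Gfi1 and 108 at higher ones, 77 lie on the minus strand and 76 on the plus strand. Just inside the count minimum were Rnf212 with 21 counts and Gm17655 with 27, and just outside it were Hfm1 with 18 and Slc10a6 with 17.

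All mice were labelled C57Bl6, and the groups were young KD (ages 39 and 42 days), sick KD (187 and 78 days), young KO (48 and 44 days) and old KO (158 and 101 days). KD mice carry a human GFI1 cDNA in place of the mouse coding sequence, with a neo cassette that lowers its expression in every cell that uses the locus, and KO mice carry a disrupted Gfi1. The sick KD mice were labelled as having AML, the other 6 mice as having none, and the study describes the disease of KD mice as a myeloproliferative one. No wild-type BM is in this comparison. The sick KD mice were both older and sick, and age and sickness cannot be told apart between the KD groups. Between old KO and sick KD, genotype and disease differ together. Genotype at Gfi1 and whatever chromosome 5 sequence was inherited with each targeted allele split the 8 mice in the same way, so they cannot be told apart either.

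Gfi1 encodes a zinc-finger repressor that recruits histone-modifying enzymes to DNA through its SNAG domain and is needed for neutrophil and lymphoid development. The name records a retroviral insertion site in lymphoma, and Evi5, its neighbour, was found in the same way. The interval holds several gene families in clusters, among them interferon-inducible guanylate-binding proteins, subunits of the LRRC8 volume-regulated anion channel, genes of mineralized matrix and a pair of crystallin genes.

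Libraries held between 26642067 and 42679114 counts on genes. Reads that the counting assigned to no gene feature made up 38.8 and 42.0% of uniquely placed reads in the sick KD libraries and 26.9 to 33.8% in the other 6. Levels are in CPM (counts relative to the size of the library, scaled by TMM), fold changes are on the log2 scale and are followed by ± their standard error, and called means an adjusted p under 0.05 in edgeR. Replicates are separate mice. In whole BM, fewer cells of a type and less RNA per cell cannot be told apart.

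4 promoter windows are shown, because they belong to the targeted gene and to members whose KO libraries all lay above the KD libraries: both annotated starts of Galnt9, the more upstream of 2 annotated starts of Gfi1, which lies inside A430072P03Rik, and the start of Crlf2. Each window runs from 250 bases before to 50 bases after a start in RefSeq (GRCm38.p6), is written 5′ to 3′ on the strand of the gene, and has each AATC, the core of the GFI1 recognition sequence, or its reverse complement GATT in capitals.
Galnt9, chr5:110544105-110544404, plus strand: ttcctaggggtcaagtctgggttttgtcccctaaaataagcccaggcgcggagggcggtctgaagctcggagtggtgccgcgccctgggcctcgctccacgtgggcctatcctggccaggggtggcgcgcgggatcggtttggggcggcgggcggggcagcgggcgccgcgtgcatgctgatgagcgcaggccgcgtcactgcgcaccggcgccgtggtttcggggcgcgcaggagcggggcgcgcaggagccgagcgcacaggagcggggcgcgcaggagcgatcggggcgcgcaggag
Galnt9, chr5:110603255-110603554, plus strand: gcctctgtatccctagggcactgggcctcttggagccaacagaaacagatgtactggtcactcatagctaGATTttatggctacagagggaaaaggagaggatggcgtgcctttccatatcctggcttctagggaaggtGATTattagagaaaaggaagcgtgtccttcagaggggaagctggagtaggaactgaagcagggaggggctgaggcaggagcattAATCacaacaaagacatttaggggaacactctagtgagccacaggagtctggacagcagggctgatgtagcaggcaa
Gfi1, chr5:107725756-107726055, minus strand: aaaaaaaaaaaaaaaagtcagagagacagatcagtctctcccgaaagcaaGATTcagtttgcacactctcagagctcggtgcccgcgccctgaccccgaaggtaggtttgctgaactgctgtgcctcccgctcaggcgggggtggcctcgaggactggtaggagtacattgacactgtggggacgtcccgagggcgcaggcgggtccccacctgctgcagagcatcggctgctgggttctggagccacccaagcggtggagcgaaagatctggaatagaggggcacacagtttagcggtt
Crlf2, chr5:109558944-109559243, minus strand: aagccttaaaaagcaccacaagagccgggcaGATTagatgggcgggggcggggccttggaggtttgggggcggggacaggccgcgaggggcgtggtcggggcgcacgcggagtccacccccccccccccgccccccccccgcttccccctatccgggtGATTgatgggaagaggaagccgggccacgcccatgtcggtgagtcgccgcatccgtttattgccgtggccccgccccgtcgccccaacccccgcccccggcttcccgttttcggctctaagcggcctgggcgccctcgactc

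The first Galnt9 window was 73.7% G and C with 41 CpG and held no AATC on either strand, whereas the second was 51% G and C with 2 CpG and held 3. The Crlf2 window was 71.7% G and C and held 2, and the Gfi1 window shown held 1, while that of its other start held 0. Windows were found for 120 of the 153 members, 150 windows in all, and their median G and C content was 64% against 52.7% over all 32817 windows of this length. AATC or GATT occurred in 102 of the 150 windows (68%) and in 73.1% of all windows. The longer sequence TAAATCAC, searched on both strands, which contains AATC, occurred in 0 of the 150 windows and in 0.579% of all. The members were chosen as protein coding and with counts in BM, whereas all windows stand for all genes. What this choice does to the G and C content and to the shares was not tested. A match of letters is a description and does not show binding.

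At the locus itself, mouse Gfi1 (chr5:107716657-107726036, minus strand) was counted in all 8 libraries. It stood at 6.20 and 7.01 CPM in young KD, 5.43 and 7.08 in sick KD, 14.2 and 14.4 in young KO, and 13.2 and 29.9 in old KO. All libraries labelled KO lay above all libraries labelled KD, on average 2.79-fold. The human cDNA of the KD allele is not among the counted genes, and a gene-level count does not separate deleted from remaining exons of the KO allele, so these counts check neither label. A430072P03Rik (chr5:107725157-107728801, plus strand) starts 879 bp from the Gfi1 start and overlaps it by 880 bp on the opposite strand. Its level was 39.8 and 44.0 CPM in young KD, 38.9 and 42.2 in sick KD, 1.75 and 1.25 in young KO, and 1.51 and 2.36 in old KO. The 4 KD libraries (41.2 ± 2.30 CPM, SD) and the 4 KO libraries (1.72 ± 0.477 CPM, SD) did not overlap and differed 24.0-fold. It was picked by name with this difference known, so no test is given, and because the strand setting of the counting is not given in the sources used here, reads of the overlapping stretch may belong to either gene.

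**Figure D1:**
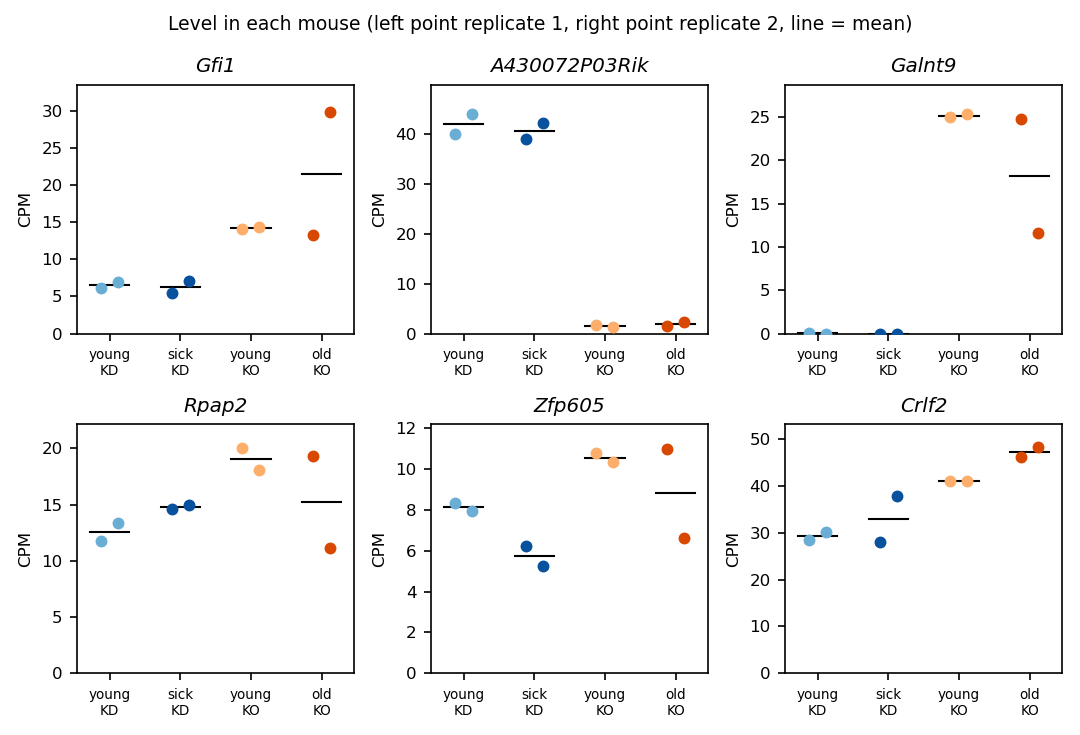
Level (CPM, linear axes from 0) of 6 genes of the interval in each mouse, with 1 point per library and a line at the group mean. All 4 KO libraries lay above all 4 KD libraries for Gfi1, Galnt9 and Crlf2 and below them for A430072P03Rik, while 1 old KO library (29.9 CPM for Gfi1, 11.6 for Galnt9, 11.1 for Rpap2) stood apart from the other 3.

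The protein-coding genes closest to Gfi1 did not pass the edgeR test in any comparison of KO with KD. Rpap2, which encodes a phosphatase of the RNA polymerase II tail, and Glmn, which encodes a regulator of cullin ubiquitin ligases, share a start region 128 kb away on the lower side. Evi5, which encodes a GTPase-activating protein for Rab GTPases, starts 149 kb away on the other side. Over the 5 nearest tested members on each side (Glmn, Rpap2, Brdt, Tgfbr3 and Cdc7, and Evi5, Fam69a, Mtf2, Tmed5 and Ccdc18), the averaged log2 difference ran from -0.49 for Brdt to 0.31 for Rpap2, and edgeR called 0 of 10 in young, in old and sick, or in averaged comparisons. An unadjusted p under 0.05 was found for Rpap2 in young mice and for Ccdc18 and Fam69a in both other comparisons, and DESeq2 called 0 in young mice and Ccdc18 in old KO against sick KD. Brdt, a bromodomain gene known from testis, stood at only 0.16 to 0.752 CPM and was not tested in old KO against sick KD.

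Rpap2 had the largest young difference of these 10. It read 11.8 and 13.4 CPM in young KD, 14.6 and 15.0 in sick KD, 20.1 and 18.1 in young KO, and 19.3 and 11.1 in old KO. Of the 4 KO libraries 3 lay above all KD libraries and the other, old KO replicate 2, below all of them. The young log2 difference of 0.59 ± 0.12 had an adjusted p of 0.889, and the old one was 0.03 ± 0.27 (adjusted p = 0.954). Glmn, on the other strand of the same start region, varied little, between 6.04 and 7.54 CPM over the 8 libraries.

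In young mice 1 of 145 tested members was called between KO and KD, where 0.0404% of all 14839 tested genes were (0.0202% higher and 0.0202% lower). That member was Galnt9 (chr5:110544355-110621380, plus strand, 2.82 Mb from Gfi1), a polypeptide GalNAc-transferase, one of the enzymes that start mucin-type O-glycosylation. In single mice it had 1 and 0 counts in young KD, 0 and 0 in sick KD, 1085 and 832 in young KO, and 704 and 452 in old KO, or 3073 counts in the 4 KO libraries and 1 in the 4 KD libraries. Its level was 24.9 and 25.3 CPM in young KO, 24.7 and 11.6 in old KO, and at most 0.0249 in any KD library. The young ratio was 1842 with a 95% exact counting interval of 330.2 to 72800. Old KO was at least 306-fold higher than sick KD, taking a floor of 3 counts over the sick KD group. Galnt9 was one of the reasons for describing this interval and passed the filter on low counts through its KO libraries only, so its call is a description.

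Other genes of the Galnt family, which lie elsewhere in the genome, had smaller differences. Of 18 such genes in the files, 3 (Galntl5, Galnt13 and Galntl6) had no counts in any library and 11 were tested. In young mice edgeR and DESeq2 called 0 of 11, with 0 at an unadjusted p under 0.05 (log2 differences from -0.18 to 0.31), and in old KO against sick KD Galnt10 (0.72, adjusted p = 0.0239) and Galnt4 (0.45, adjusted p = 0.0394) were higher and Galnt7 (-0.56, adjusted p = 0.0369) lower. In the averaged comparison Galnt10 (0.40, adjusted p = 0.0366) and Galnt4 (0.28, adjusted p = 0.0491) were higher in KO, and the KO libraries of Galnt10 (85.0 to 99.5 CPM) did not overlap its KD libraries (50.4 to 82.7 CPM). The summed level of the 18 genes was 404 to 447 CPM in KD and 445 to 479 CPM in KO libraries.

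The other members with the smallest unadjusted p in young mice did not pass after adjustment over all genes. They were Crlf2 (0.47 ± 0.08, adjusted p = 0.747), Rpap2, Antxr2 (0.32), Crybb1 (1.01), Pxmp2 (-0.79), Zfp605 (0.36), Cryba4 (0.57), Cops4 (0.21) and Myo18b (0.45), with log2 differences in parentheses and an adjusted p of 1 for each one after Rpap2. An unadjusted p under 0.05 was found for 10 members (6.9%) and for 2.66% of all genes. The median log2 difference of members was 0.03 and that of all genes -0.01. Without the filter on low counts 3 of 153 members were called, beside 0.544% of 21861 genes. With at least 10 counts required in every mouse, which removes Galnt9, edgeR called 0 members and 0.0356% of all genes. There 8 members had an unadjusted p under 0.05.

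**Figure D2:**
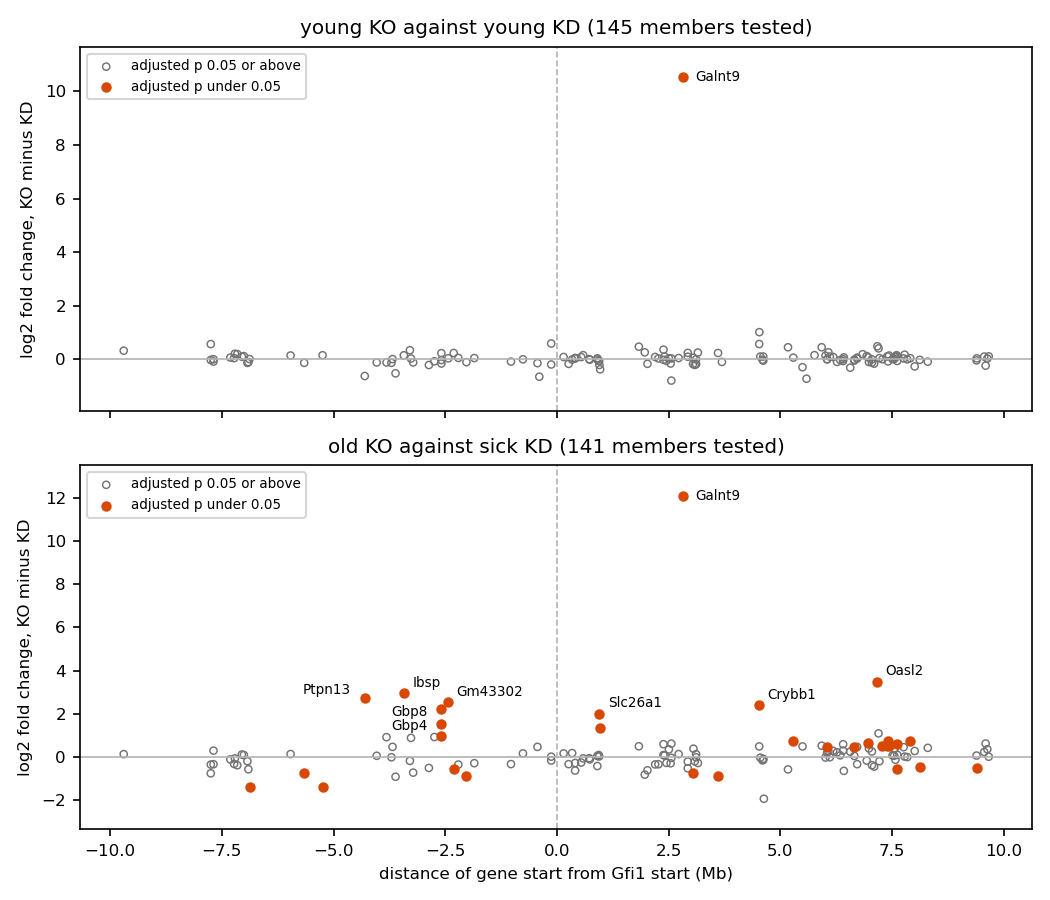
Log2 fold change of each tested member (KO minus KD) against the distance of its start from the Gfi1 start (Mb), in young mice (145 members) and in old KO against sick KD (141 members), with called members filled. Galnt9 alone is called in the upper panel, while 30 members on both sides of Gfi1 are called in the lower one, where the fitted value of Galnt9 is set against 0 counts in sick KD.

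Averaged over the young comparison and old KO against sick KD, 20 of 145 members were called between KO and KD (13.8%). Of these, 15 were higher in KO and 5 lower. Of all 15102 tested genes 8.82% were called (4.66% higher, 4.17% lower), and 10.7% of the other protein-coding genes of chromosome 5 were. This average rests in part on sick KD, whose difference from the other groups is described further on. With single mice left out, the share of all genes called moved the same way as the counts of members given below. Higher in KO by this average were Galnt9, Mn1, Oasl2, Crybb1, Ibsp, Gm43302, Gbp8, Gbp4, Gbp9, Crlf2, Grk3, Rab35, Srsf9, Mlec and Sppl3, and lower were Arhgap24, Lrrc8d, Ep400, Wdfy3 and Git2. For 8 of the 20, the KO to KD difference in old KO and sick KD was also called unlike that in the young groups. An averaged call is thus not a difference held in both comparisons. The young log2 difference was, for example, -0.15 for Gbp9, -0.03 for Gbp4, 0.47 for Crlf2 and 1.01 for Crybb1. Galnt9 alone of the 20 was called in young mice. The count fell to 9 without old KO replicate 1, 8 without sick KD replicate 1, 8 without young KD replicate 1, 3 without young KD replicate 2, 2 without young KO replicate 1 and 6 without young KO replicate 2, and rose to 33 without sick KD replicate 2.

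Single libraries were also compared, whether or not the average called the member. Among the 136 members with a mean of at least 1 CPM, the 4 KO libraries lay above all 4 KD libraries in 12 (8.82%, against 3.09% of 12640 genes) and below them in 5 (3.68%, against 1.58%). The 12 were Gbp8, Crlf2, Galnt9, Pus1, Cryba4, Grk3, Coro1c, Gltp, Acads, Mlec, Srsf9 and Pebp1, and the 5 were 4930522L14Rik, Pgam5, Ep400, Git2 and 1500011B03Rik. Several of these gaps were narrow, such as 0.0176 CPM for Pebp1 and 0.278 CPM for Gbp8. Without young KD replicate 1 the count of 17 became 33. Leaving out a mouse eases the condition, so the count could hardly fall, and the share of all genes was not taken for that setting.

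Crlf2 (chr5:109554709-109558993, minus strand, 1.83 Mb from Gfi1) encodes the receptor chain for thymic stromal lymphopoietin, a cytokine. It stood at 28.6 and 30.1 CPM in young KD, 28.2 and 37.8 in sick KD, 41.1 and 41.1 in young KO, and 46.3 and 48.2 in old KO. All KO libraries were above all KD libraries, 1.42-fold on average. In edgeR the difference was 0.47 ± 0.08 in young mice and 0.50 ± 0.16 in old KO against sick KD (adjusted p = 0.747 and 0.068). It changed by 0.02 ± 0.19 between these comparisons and averaged 0.49 ± 0.09 (adjusted p = 0.0244). The averaged call held when either sick KD mouse was left out and was lost when any one of the other 6 was.

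The crystallin genes Cryba4 and Crybb1, which encode structural proteins of the lens and stand next to each other 4.53 Mb from Gfi1, were both low and both higher in KO. Crybb1 was at 0.623 and 0.602 CPM in young KD, 0.16 and 0.352 in sick KD, 1.42 and 1.07 in young KO, and 0.984 and 1.80 in old KO, and its averaged difference was 1.71 ± 0.31 (adjusted p = 0.0202). Cryba4 was at 1.44 to 1.60 CPM in KD and 2.06 to 2.39 CPM in KO, with an averaged difference of 0.54 ± 0.16 that did not pass (adjusted p = 0.0722). For both genes no KO library overlapped a KD library. The Crybb1 call was lost without sick KD replicate 1, young KD replicate 2 or young KO replicate 1.

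Old KO replicate 2 stood apart from the other 3 KO libraries at a few members, a comparison chosen after its values were seen. Its Galnt9 level was 0.465 times, its Rpap2 level 0.579 times and its Zfp605 level 0.617 times the mean of the other 3, and its Gfi1 level was 2.14 times that mean. Zfp605, a zinc-finger gene 2.38 Mb from Gfi1, read 10.8, 10.3 and 11 CPM in the other KO libraries, 6.61 in this one, and 5.25 to 8.35 in KD. Over members at 1 CPM or more, this library lay more than 1.5-fold beyond the range of the other 3 KO libraries in 6 of 136 (4.41%; Rpap2, Slc26a1, Zfp605, Pxmp2, Galnt9 and Oasl2) and in 0.799% of all genes. The shares were 0.735% and 1.29% for young KO replicate 1, 0% and 1.99% for young KO replicate 2, and 1.47% and 3.7% for old KO replicate 1. A430072P03Rik (2.36 CPM) and Crlf2 (48.2 CPM) did not stand apart in this way. Without this mouse the averaged comparison called 14 members, Rpap2 and Zfp605 among them. What sets this library apart was not tested.

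In old KO against sick KD 30 of 141 members were called (21.3%), 20 higher and 10 lower, against 18.1% of all 14470 tested genes (9.93% higher, 8.22% lower). In sick KD against young KD 33 of 143 were called (23.1%), 12 higher and 21 lower, against 20.9% of 14656 genes (9.45% higher, 11.4% lower). Both shares are near the background of the whole genome. That background moved the same way as the counts of members given below when single mice were left out. Both comparisons use the sick KD mice, so their lists are not independent, and each is given with its own values. The first count fell to 17 without old KO replicate 1, 18 without old KO replicate 2 and 12 without sick KD replicate 1, and was 49 with all 8 mice in a single fit. The second fell to 16 without young KD replicate 1 and 18 without young KD replicate 2.

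Marker genes of other cell types also differed in the sick KD libraries, and these values belong beside every gene group described next. All the listed markers of each cell type had counts. The summed level of 10 neutrophil markers was 6116 to 8013 CPM in sick KD and 3294 to 4499 CPM in the other groups, and that of 7 B cell markers was 34.9 to 79.2 CPM in sick KD, 108 to 157 CPM in old KO and 467 to 651 CPM in young mice. That of 7 stroma and bone markers was 23.1 to 24.1 CPM in sick KD and 99.5 to 203 CPM in the other groups, and that of 8 erythroid markers was 676 to 1014 CPM in sick KD and 1466 to 4722 CPM elsewhere. From young to sick KD edgeR called 2 of 10 neutrophil markers higher (Elane and Mmp8) and 0 lower. The log2 differences of these 10 had a median of 0.32 and ran from -0.70 to 1.31, so the neutrophil list did not rise as a whole. The summed level of 7 monocyte markers was 8961 to 9405 CPM in sick KD and 6223 to 8475 CPM in the other groups. Of these 7, Ly6c2 was called higher and Cx3cr1 lower from young to sick KD, with a median log2 difference of 0.19. Called lower were 7 of 7 B cell, 8 of 8 erythroid, 5 of 6 tested stroma and bone, and 5 of 7 macrophage markers (C1qa, C1qb, C1qc, Cd163 and Vcam1). The median log2 difference of the macrophage list was -1.31 there and 2.13 in old KO against sick KD, where the same 5 were higher, although its summed level of 200.2 to 233 CPM in sick KD overlapped the 226 to 409 CPM of the other groups. Of 6 eosinophil, basophil and mast cell markers 4 were higher in old KO than in sick KD, and of 7 T and NK cell markers 3 were. The part of these shifts in the results was not tested.

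**Figure D3:**
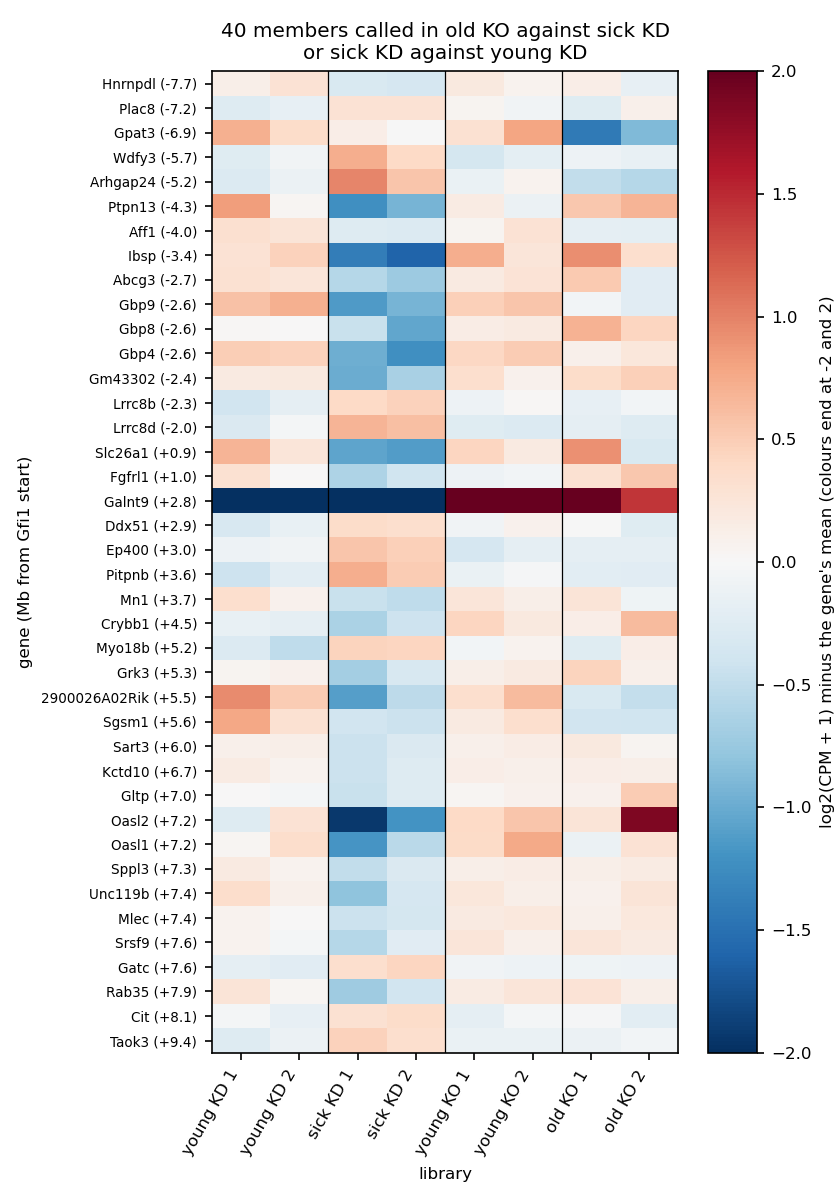
Level of the 40 members called in old KO against sick KD or in sick KD against young KD, in each library, as log2(CPM + 1) minus the mean of the gene over the 8 libraries, with genes in order of position. The 2 sick KD columns differ from the other 6 for most genes, while Galnt9 splits all KD from all KO libraries.

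The interferon-inducible genes of the interval were lower in sick KD. Guanylate-binding proteins are large GTPases that interferon induces and that attack vacuoles holding microbes, and Oasl1 and Oasl2 are relatives of the oligoadenylate synthetases of the antiviral response. Of the 5 tested members of this group, 4 (Gbp4, Gbp9, Oasl1 and Oasl2) fell and 0 rose from young to sick KD, with a median log2 difference of -1.82 over the 5. In old KO against sick KD 4 (Gbp4, Gbp8, Gbp9 and Oasl2) were higher and 0 lower, with a median of 1.53, and in young mice edgeR and DESeq2 called 0 of 5, with 0 at an unadjusted p under 0.05.

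Gbp4 read 10.2 and 9.93 CPM in young KD, 3.03 and 2.40 in sick KD, 9.65 and 10.3 in young KO, and 7.52 and 8.35 in old KO. Gbp9 read 21.1 and 23.0 CPM in young KD, 5.71 and 6.69 in sick KD, 19.3 and 20.6 in young KO, and 13.1 and 11.6 in old KO. In neither gene did sick KD overlap another group, and the young groups lay close together. The fall from young to sick KD was -1.88 ± 0.21 for Gbp4 (adjusted p = 0.00568) and -1.82 ± 0.16 for Gbp9 (adjusted p = 0.00365), and both calls held with each mouse left out. Gbp8 was low, at 1.74 and 1.71 CPM in young KD, 0.998 and 0.317 in sick KD, 2.02 and 2.07 in young KO, and 3.41 and 2.67 in old KO, and its fall of -1.40 ± 0.50 did not pass (adjusted p = 0.0906).

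The annotated spans of Gbp4, Gbp8 and Gbp9 overlap on the same strand, by 61910 bp between Gbp8 and Gbp9, so how reads were split among them is uncertain. Gm43302, a gene 2.43 Mb from Gfi1 in the same cluster, stood at 0.20 and 0.528 CPM in sick KD and at 1.55 to 2.31 CPM in the other 6 libraries, and fell by 2.2 on the log2 scale (adjusted p = 0.0212). Oasl2, 7.17 Mb on the other side of Gfi1, was at 4.48 and 6.98 CPM in young KD, 0.719 and 1.87 in sick KD, 7.63 and 8.56 in young KO, and 6.82 and 22.9 in old KO. Its difference of 3.49 ± 0.66 between old KO and sick KD (adjusted p = 0.0169) was lost without sick KD replicate 1. Oasl1 fell by 1.21 from young to sick KD (adjusted p = 0.0392), a call lost without sick KD replicate 1 or young KD replicate 2. Of 4 guanylate-binding genes outside the interval, Gbp2 alone was called from young to sick KD (-0.95, adjusted p = 0.0123), and their summed level was 157 to 158 CPM in sick KD and 187 to 249 CPM elsewhere. B cell and macrophage markers were lower in the same 2 libraries, as given above, and their part in these values was not tested.

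The LRRC8 subunits moved the other way. Lrrc8b, Lrrc8c and Lrrc8d are neighbours about 2 Mb from Gfi1 and encode subunits that combine with LRRC8A into the channel through which swollen cells release chloride and small solutes. Lrrc8d read 52.9 and 63.6 CPM in young KD, 105 and 99.3 in sick KD, 55.1 and 54.1 in young KO, and 57.2 and 54.4 in old KO. Lrrc8b read 25.6 and 29.4 CPM in young KD, 44.4 and 46.8 in sick KD, 31.3 and 34.0 in young KO, and 29.9 and 32.2 in old KO. Sick KD lay above every other library for both genes. From young to sick KD, 2 of 3 rose, Lrrc8d by 0.82 ± 0.13 (adjusted p = 0.0114) and Lrrc8b by 0.74 ± 0.12 (adjusted p = 0.0134), the second lost without young KD replicate 1. Lrrc8c was at 58.3 and 59.8 CPM in sick KD and 42.8 to 49.8 CPM elsewhere, and its difference of 0.36 ± 0.12 did not pass (adjusted p = 0.0782). Lrrc8a and Lrrc8e, on other chromosomes, summed to 6.55 to 9.16 CPM in sick KD and 11.1 to 15.1 CPM elsewhere, nearly all of it Lrrc8a, whose difference of -0.67 did not pass (adjusted p = 0.0776).

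In the bone matrix cluster Ibsp, which encodes bone sialoprotein of mineralized matrix, fell in sick KD and its neighbour Spp1, which encodes osteopontin and is also made by macrophages, was not called. Ibsp read 5.83 and 6.71 CPM in young KD, 1.16 and 0.846 in sick KD, 8.34 and 5.66 in young KO, and 9.70 and 6.09 in old KO. Its fall of -2.64 ± 0.28 (adjusted p = 0.00495) and its difference of 2.96 ± 0.35 between old KO and sick KD (adjusted p = 0.0052) held with each mouse left out. Spp1 ranged from 3.49 to 8.07 CPM with sick KD at 8.07 and 4.54 (0.57 ± 0.34, adjusted p = 0.265). The third tested gene of this list, Sparcl1, stayed under 1 CPM. The stroma and bone marker list, which fell in the same libraries, moved with Ibsp, and its part in the result was not tested.

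**Figure D4:**
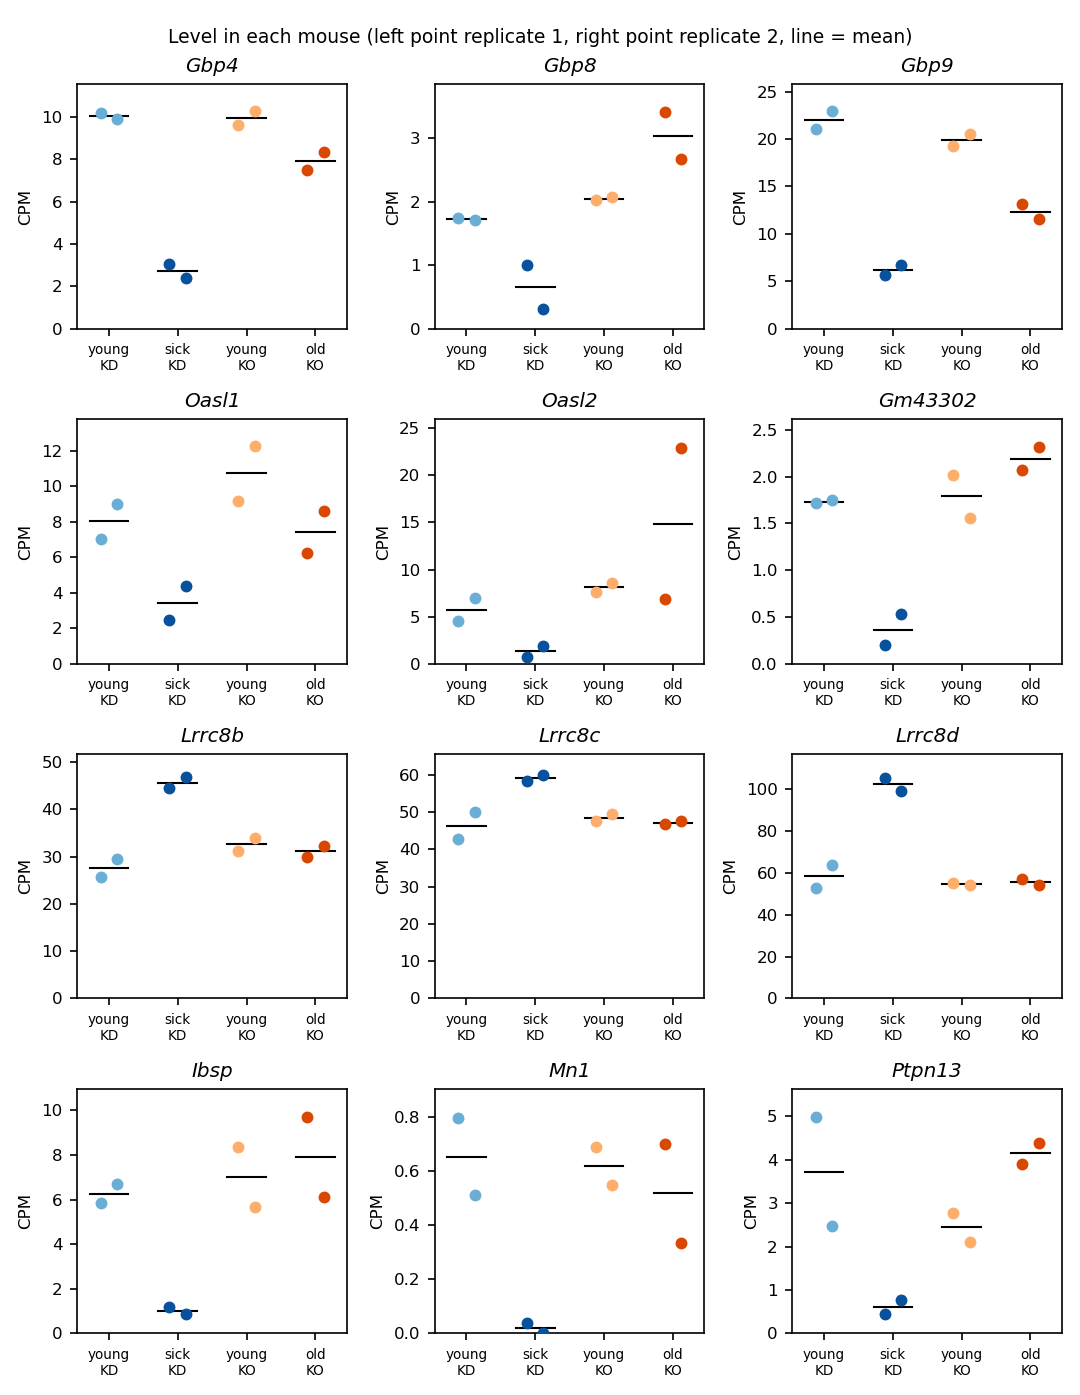
Level (CPM, linear axes from 0) of 12 members in each mouse, with 1 point per library and a line at the group mean. Both sick KD libraries lay below all others for Gbp4, Gbp8, Gbp9, Oasl1, Oasl2, Gm43302, Ibsp, Mn1 and Ptpn13 and above all others for Lrrc8b, Lrrc8c and Lrrc8d.

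Among the remaining members lower in sick KD, Ptpn13, a protein tyrosine phosphatase, read 4.98 and 2.47 CPM in young KD, 0.439 and 0.775 in sick KD, 2.78 and 2.10 in young KO, and 3.90 and 4.40 in old KO. The fall was -2.59 ± 0.47 (adjusted p = 0.0162) and was lost without sick KD replicate 1. Fgfrl1, a receptor-like gene of the fibroblast growth factor family 0.966 Mb from Gfi1, read 3.04 and 2.29 CPM in young KD, 1.12 and 1.48 in sick KD, 2.02 and 2.13 in young KO, and 3.02 and 3.73 in old KO. Its difference of 1.36 ± 0.30 between old KO and sick KD (adjusted p = 0.025) was lost without old KO replicate 2 or sick KD replicate 1. Slc26a1, a sulfate and oxalate transporter, fell by 2.08 from young to sick KD (adjusted p = 0.00808), from 7.52 and 5.29 CPM to 1.56 and 1.44. Its difference of 2.01 between old KO and sick KD (adjusted p = 0.0325) was lost without old KO replicate 1 or either sick KD mouse. Mn1, a transcriptional coregulator known from myeloid leukaemia, and Sgsm1 had 1 and 0 counts in sick KD against 32 and 17 (Mn1) and 53 and 22 (Sgsm1) in young KD. The young to sick ratio was 35.7 with a counting interval of 6.11 to 1438 for Mn1 and 54.6 with an interval of 9.51 to 2185 for Sgsm1. Both passed the filter through the young KD libraries and were tested at very low levels.

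Smaller falls in sick KD were called for the splicing factor Sart3 (-0.47), the RNA-binding gene Hnrnpdl (-0.52), Aff1 (-0.55), which encodes a transcription elongation scaffold, Grk3 (-0.56), a kinase of G-protein-coupled receptors, and Rab35 (-0.69), a GTPase of endocytic recycling. Sppl3 (-0.51), Mlec (-0.42), Kctd10 (-0.45), Unc119b (-0.79), Abcg3 (-1.03) and 2900026A02Rik (-1.82) also fell. The last 2 calls held with each mouse left out, whereas the other 9 were all lost without young KD replicate 1. Without young KD replicate 2, those of Sart3, Hnrnpdl, Aff1, Grk3, Sppl3, Mlec and Kctd10 were lost, and without sick KD replicate 1 those of Sart3, Rab35, Sppl3, Kctd10 and Unc119b. Mlec, which encodes the lectin malectin of the endoplasmic reticulum, illustrates their size, with 597 and 568 CPM in young KD, 420 and 442 in sick KD, 642 and 653 in young KO, and 607 and 657 in old KO. In old KO against sick KD, which uses the same sick mice, Kctd10 (0.46), Sart3 (0.48), Sppl3 (0.52), Mlec (0.54), Srsf9 (0.60), Gltp (0.66), Unc119b (0.73), Rab35 (0.73) and Grk3 (0.77) were called higher. All 9 of these calls were lost without sick KD replicate 1, and that of Mlec in each of the 4 fits with a mouse left out.

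Higher in sick KD than in young KD were Arhgap24 (1.0 ± 0.17, adjusted p = 0.0139) and Pitpnb (0.98 ± 0.15, adjusted p = 0.0106), a phosphatidylinositol transfer protein. Arhgap24 read 26.1 and 29.4 CPM in young KD, 63.5 and 47.1 in sick KD, 28.8 and 33.3 in young KO, and 22.3 and 21.2 in old KO. Pitpnb read 15.4 and 17.9 CPM in young KD, 35.1 and 30.1 in sick KD, 19.0 and 20.5 in young KO, and 18 and 17.8 in old KO. Sick KD did not overlap any other group for either gene, and both calls held with each mouse left out. Ep400, the motor of a chromatin-remodelling complex, rose by 0.62 (163 and 166 CPM to 259 and 244), Wdfy3, a scaffold of selective autophagy, by 0.74, Gatc, a subunit of a mitochondrial amidotransferase, by 0.63, the kinases Taok3 and Cit by 0.60 and 0.45, Ddx51, a helicase of ribosome biogenesis, by 0.63, Myo18b by 0.96 and Plac8 by 0.51. The Ep400, Gatc, Taok3, Cit, Ddx51 and Plac8 calls were lost when either young KD mouse was left out, that of Wdfy3 without replicate 1 and that of Myo18b without replicate 2.

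Plac8, which encodes a small cysteine-rich protein abundant in myeloid cells, had the highest level per length of all members, 689 CPM per kb, where the median member had 5.08 CPM per kb and 54 of 153 had 10 or more. Its level was 906 and 969 CPM in young KD, 1329 and 1332 in sick KD, 1134 and 1033 in young KO, and 916 and 1160 in old KO. Members with other roles were called one by one. The counts below stand beside 18.1% of all genes called in old KO against sick KD, and lists this short cannot be told from that share. Of 11 DNA replication and repair genes edgeR and DESeq2 called 0 in any comparison, with 0.08 as the median log2 difference between old KO and sick KD and 2 genes at an unadjusted p under 0.05 there. Of 17 tested mitochondrial and lipid enzymes, Gatc and Gpat3 were lower in old KO than in sick KD and 0 were higher, with a median of 0.14. Of 11 kinases and cytoskeleton regulators, Grk3 and Rab35 were higher and Cit and Taok3 lower in the same comparison (median 0.06). Of 9 RNA-binding and processing genes, Sart3 and Srsf9 were higher and 0 lower (median 0.08), and of 10 genes of chromatin and transcription, Ep400 was lower and 0 higher (median -0.17). None of 8 cell-surface and secreted proteins of blood cells was called there, with a median of 0.12, and of 4 glycan and glycolipid enzymes Galnt9 alone was.

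Between old KO and young KO 0 of 144 members were called, where 0.929% of 14847 genes were. An unadjusted p under 0.05 was found for 16 members (11.1%, against 8.86% of all genes), and DESeq2 called 4 of 144 members, beside 2.58% of all genes. The smallest p belonged to Sgsm1 (-4.20 ± 0.61, adjusted p = 0.054), with 23 and 23 counts in young KO and 1 and 1 in old KO, a ratio of 20.3 with a counting interval of 5.31 to 173. Gpat3, an acyltransferase of triglyceride synthesis, followed, with 13.4 and 19.1 CPM in young KO and 3.34 and 5.30 in old KO (-1.90 ± 0.29, adjusted p = 0.063). Gbp9 (-0.69), 2900026A02Rik (-1.04), Arhgap24 (-0.51), Pkd2, Fam222a, Aff1 (-0.37), Ccdc18 (-0.34) and Ptpn13 (0.77) came next and did not pass. Without old KO replicate 1 the count was 2 and without old KO replicate 2 it was 1.

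The KO to KD difference itself in old KO and sick KD was unlike that in the young groups for 14 of 145 members (9.66%, 7 in each direction), against 7.43% of 15102 genes (4.32% higher, 3.11% lower). It moved up for Mn1, Ptpn13, Ibsp, Gm43302, Fgfrl1, Gbp4 and Gbp9 and down for Arhgap24, Pitpnb, Lrrc8b, Lrrc8d, Gatc, Ep400 and Taok3. Leaving out single mice moved the share of all genes called the same way as the counts of members given below. Over the 140 members tested in both, 71 (50.7%) had the same sign in the young and in the old and sick comparison, which share no mice, and 50.8% of all 14260 genes did. The count was 5 without old KO replicate 1, 5 without sick KD replicate 1, 24 without sick KD replicate 2, 0 without young KD replicate 1, 8 without young KD replicate 2, 2 without young KO replicate 1 and 0 without young KO replicate 2. In the edgeR fits that called 0, 33 and 37 of 148 members had an unadjusted p under 0.05.

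**Figure D5:**
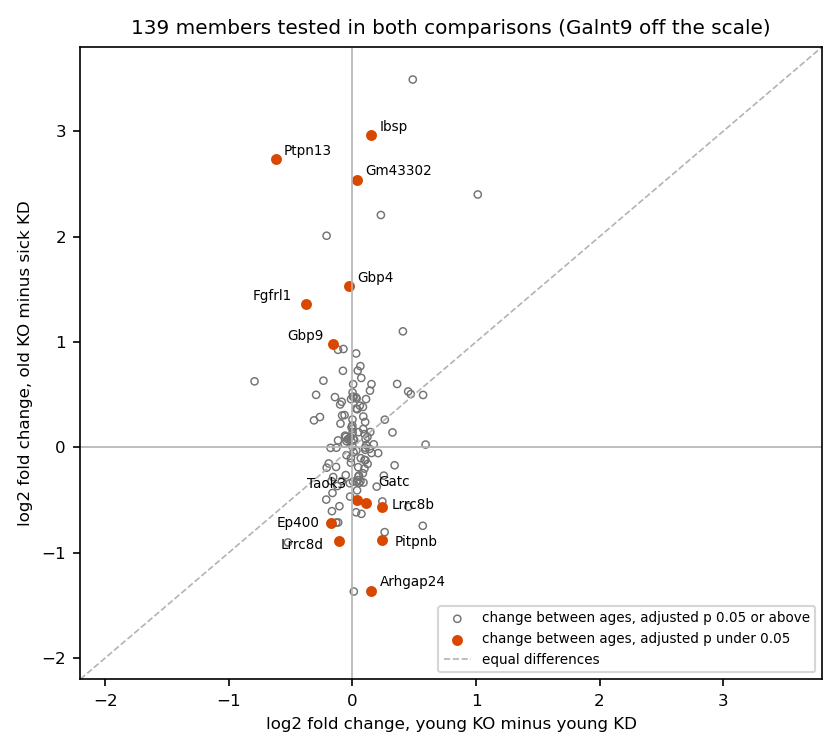
Log2 fold change of 139 members (Galnt9 lies off the scale) between young KO and young KD (horizontal) and between old KO and sick KD (vertical). Members whose difference in old KO and sick KD was called unlike that in the young groups are filled. A dashed line marks equal differences. The young differences of the filled points ran from -0.62 (Ptpn13) to 0.24 (Pitpnb), and Mn1 is absent because it was not tested in old KO against sick KD.

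By position, calls were spread over the interval. In the averaged comparison 1 of 24 tested members within 2 Mb of Gfi1 was called (Crlf2), 10 of 49 between 2 and 5 Mb (20.4%) and 9 of 72 between 5 and 10 Mb (12.5%), beside 8.74% of protein-coding genes on other chromosomes. Between 2 and 5 Mb on the lower side 6 of 19 were called, namely Gbp4, Gbp8, Gbp9, Gm43302, Ibsp and Lrrc8d. In young mice edgeR called 0 of the 19 tested there, with 0 at an unadjusted p under 0.05. In old KO against sick KD it called 8 of 19 there. The median absolute log2 difference in young mice was 0.08 within 2 Mb, 0.12 between 2 and 5 Mb, 0.10 between 5 and 10 Mb, 0.08 on the rest of chromosome 5 and 0.07 on other chromosomes. Neighbouring genes are not independent, and no test of position was made.

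There are 14 pairs of members on opposite strands whose starts lie within 1000 bp of each other, 28 genes in all. From young to sick KD 1 gene was called in 5 of these pairs and both in 0, and in old KO against sick KD 1 gene in 3 pairs and both in 0. Of all genes, 20.9% and 18.1% were called in these comparisons, so few pairs with both genes called were to be had. Gatc rose by 0.63 in sick KD while Triap1, whose start is 47 bp away, had a difference of -0.08 (adjusted p = 0.644). Ddx51 rose by 0.63 and Noc4l, 34 bp away, had a difference of 0.20 (adjusted p = 0.234). Sart3 fell by 0.47 and Iscu, 238 bp away, had a difference of -0.04 (adjusted p = 0.829). A gene that passed beside one that did not is not shown to differ from it, since the difference between the paired genes was not tested.

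Of the 153 members, 8 were not tested in the averaged comparison because their counts were too low, namely Hsd17b13, 1700028K03Rik, Rnf212, Gm17655, Plcxd1, Wscd2, Msi1 and Ksr2, whose summed counts ran from 21 to 70. In the other comparisons between 8 and 12 members were not tested.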

How the data were processed

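Whole BM RNA-seq of 8 mice was analysed, 2 in each group, grouped by the sample labels. The deposited values are the authors' raw HTSeq counts, 1 count per Ensembl gene and mouse with no normalization, from stranded mRNA libraries aligned to mm10 (GRCm38) with TopHat2 2.0.10. Counting settings are not given in the sources used here. Members were selected on GENCODE M21. Counts were tested on all genes with edgeR 4.0.16 (limma 3.58.1, R 4.3.3), using TMM, a filterByExpr filter on groups and quasi-likelihood tests with Benjamini-Hochberg adjustment over all genes tested. The 2 KO to KD comparisons and the 2 comparisons within a genotype used their own 4 mice, and the interaction and the average used all 8. SE is the log2 fold change over the square root of F. On simulated counts with 200 genes changed 4-fold, 99% were recovered in the young comparison (14791 genes). The simulation gave every gene the same spread and changed only genes above a minimum mean count. It therefore does not show how often smaller changes or genes with few counts would be called. Alternatives were DESeq2 1.42.0, RLE factors, other filters, GC and length offsets, 8-mouse fits and leaving out each mouse. The members, lists and named genes (called members with the largest changes, the nearest genes, the smallest p where few passed, and lists by role) were chosen with earlier results of these data known.

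Libraries held 26642067 to 42679114 counts, and 5 tallies per file of unassigned reads stayed out of library sizes. Replicates of a group differed by 23.5 to 38.8 times the counting noise (chi-square per degree of freedom), so each mouse counted as 1 replicate. Exact intervals and floors of 3 counts cover counting error only.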

Additional observations from a re-analysis of the deposited data

Results flagged for a closer look

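The difference between KO and KD was not the same in the young groups as in old KO and sick KD, by the interaction test of edgeR over all genes with adjusted p under 0.05, for 14 members. The change, old KO minus sick KD against young KO minus young KD on the log2 scale, was -1.52 for Arhgap24, -1.13 for Pitpnb, -0.81 for Lrrc8b, -0.79 for Lrrc8d, -0.64 for Gatc, -0.55 for Ep400 and -0.55 for Taok3. It was 1.12 for Gbp9, 1.55 for Gbp4, 1.72 for Fgfrl1, 2.50 for Gm43302, 2.80 for Ibsp, 3.35 for Ptpn13 and 4.58 for Mn1. Ibsp and Arhgap24 kept their call in 6 of 8 fits with a mouse left out, Gbp4 in 5, and Ptpn13 and Pitpnb in 4. Lrrc8b kept it in 3, Gbp9, Lrrc8d and Fgfrl1 in 2, Mn1, Gm43302, Ep400 and Taok3 in 1, and Gatc in 0. Marker sums of neutrophils, of monocytes and of stroma and bone also differed in the sick KD libraries, and their part was not tested.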

How the results depend on the processing

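Of 1125 refitted log2 differences of members named under their comparisons, 0 changed sign, 874 kept their side of the threshold, 236 lost a call and 15 gained one. In young mice 3 members were called without the filter and 0 with at least 10 counts in every mouse, which drops Galnt9, while every fit with a mouse left out called 1. In old KO against sick KD the 8-mouse fit called 49, and fits with a mouse left out 12 to 38. From young to sick KD the GC and length offsets called 50, and leaving out mice gave 16 to 44. Between old and young KO, DESeq2 called 4, no filter 9 and the 8-mouse fit 1, and leaving out mice gave 0 to 2. For the interaction DESeq2 called 29, no filter 31 and the offsets 22, and leaving out mice gave 0 to 24. For the average DESeq2 called 31, no filter 33 and the offsets 31, and leaving out mice gave 2 to 33. Members whose KO and KD libraries did not overlap numbered 19 to 33 with a mouse left out. Fewer libraries then have to stay apart, so this count could hardly fall and does not measure stability. With distance classes of 1, 3 and 10 Mb, the averaged comparison called 0 of 20 members within 1 Mb by edgeR (4 at an unadjusted p under 0.05), while old KO against sick KD called 2 of 19 there. The share of all genes called shifted as well. For the average it was 8.82% in the main fit, 13.1% with DESeq2, 13.1% without the filter and 13.7% with the offsets. For the interaction it was 7.43%, 12.9%, 12.7% and 12.6% in the same order. The 8-mouse fit called 27.8% of all genes in old KO against sick KD, and the offsets 31.4% from young to sick KD. In young mice the share was 0.544% without the filter and 0.0356% with at least 10 counts in every mouse. Between old and young KO it was 2.58% with DESeq2, 3.65% without the filter and 0.622% in the 8-mouse fit. The counts of members are therefore not a trait of the members alone. The cause of these shifts was not tested. A fit without 1 mouse leaves a lone sample that is assumed to vary like the other groups. Genes under about 1 CPM rest on few counts. The refitted members were named for large called changes or small p in these same data, so their signs could hardly turn. No paired analysis was possible because each mouse has its own number in the labels, which occurs in 1 group only.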

Other observations

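Outside the interval, chosen after its values were seen, Atp10d, which GENCODE lists as a polymorphic pseudogene 35.5 Mb from Gfi1 on chromosome 5, read 139 to 158 CPM in the 4 KD libraries and 48.1 to 57.1 CPM in the 4 KO libraries. Old KO replicate 2, which stood apart at Galnt9 and Rpap2, was not apart at Atp10d.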
